A study of Mus musculus with 7 samples.

Results

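The guanylate-binding protein (GBP) genes Gbp5, Gbp7, Gbp3, Gbp2 and Gbp6 were followed through a chromatin immunoprecipitation sequencing (ChIP-seq) series on the NF-kB subunits RelA and RelB. Every region of the deposited table that the authors assigned to one of these 5 symbols, at 100 kb or less from the transcription start site (TSS), was taken. This gave 19 of 93611 regions: 6 for Gbp5, 2 for Gbp7, 4 for Gbp3, 2 for Gbp2 and 5 for Gbp6. No region of these symbols lay farther away.

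The cells were bone marrow-derived dendritic cells (BMDCs) of C57BL/6 mice, cultured with 2 cytokines, GM-CSF (20 ng/ml) and IL-4 (10 ng/ml). They were either wild type (WT) or lacked RelB (RelBko), and the RelBko allele is not described further in the labels. RelB was precipitated from WT and from RelBko cells, untreated (0 h) or 1 h after addition of 10 ng/mL lipopolysaccharide (LPS), and RelA from both genotypes after 1 h with LPS. Input DNA of WT cells, with no time or treatment in its labels, was the seventh library. Chromatin was crosslinked with the fixatives DSG (1.0 mM) and PFA (1.0%). Each group held 1 library, so no spread between replicates could be estimated, no test was made and no p-value is given. Intervals are exact 95% intervals of read counts and cover counting error only. The study asks how loss of RelB affects DNA binding by RelA.

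GBPs are large GTPases that interferons induce in macrophages, dendritic cells and many other cells. They assemble on vacuoles that hold microbes and on the surface of cytosolic bacteria, and they help inflammasomes to sense bacterial lipopolysaccharide. Their genes lie in tandem clusters. Induction by interferon runs through gamma-activated sites and interferon-stimulated response elements in their promoters. RelA is the NF-kB subunit released within minutes of LPS, and RelB acts in the noncanonical NF-kB pathway and in the maturation of dendritic cells.

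The promoters are shown because, by the mean over the 7 libraries, the strongest region of 4 of the 5 genes lay at the start site. RefSeq promoter entries (build GRCm38.p6) were matched by symbol for 4 of the 5 genes. The 250 bases before the RefSeq start are printed 5' to 3' on the + strand, the coding strand of all 4 genes. Capitals mark matches, on either strand, to the response element core (GAAA and GAAA with 2 unspecified bases between), to the gamma-activated site TTCNNNGAA and to a degenerate kB motif, the sequence class that NF-kB dimers bind.
Gbp5 (chr3:142496684-142496933): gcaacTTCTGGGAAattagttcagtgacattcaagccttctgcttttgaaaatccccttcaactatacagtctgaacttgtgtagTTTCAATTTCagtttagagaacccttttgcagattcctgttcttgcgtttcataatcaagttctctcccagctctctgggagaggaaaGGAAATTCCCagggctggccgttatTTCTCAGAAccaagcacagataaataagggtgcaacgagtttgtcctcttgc
Gbp7 (chr3:142530086-142530335): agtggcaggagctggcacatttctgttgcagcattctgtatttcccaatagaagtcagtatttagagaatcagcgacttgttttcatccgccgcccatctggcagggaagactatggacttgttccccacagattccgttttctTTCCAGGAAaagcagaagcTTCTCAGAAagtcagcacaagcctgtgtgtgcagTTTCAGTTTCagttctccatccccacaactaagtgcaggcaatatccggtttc
Gbp3 (chr3:142559794-142560043): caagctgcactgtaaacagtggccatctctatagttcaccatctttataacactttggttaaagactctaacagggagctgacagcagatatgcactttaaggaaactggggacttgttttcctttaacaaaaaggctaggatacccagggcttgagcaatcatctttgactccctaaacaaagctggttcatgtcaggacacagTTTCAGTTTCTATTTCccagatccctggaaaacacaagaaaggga
Gbp2 (chr3:142620413-142620662): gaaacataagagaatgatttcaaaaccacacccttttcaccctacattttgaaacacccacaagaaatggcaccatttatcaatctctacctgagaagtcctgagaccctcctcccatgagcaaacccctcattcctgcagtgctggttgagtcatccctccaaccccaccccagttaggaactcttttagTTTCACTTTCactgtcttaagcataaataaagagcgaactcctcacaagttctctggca

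Positions in these promoters count from the RefSeq start, with negative numbers upstream, and each names the first base of a match. The response element core was found in all 4 printed promoters, at -165 in Gbp5, at -53 in Gbp7, at -45 and -39 in Gbp3 (overlapping each other) and at -59 in Gbp2. Each of these matches read on the strand opposite to the gene. Of 32851 RefSeq promoters searched over the same span (250 bases before the start and 50 after), 3.44% held this core. The kB motif was found at -77 in Gbp5 and at 8, after the start, in Gbp2, and 8.46% of all promoters held it. The Gbp2 match lies in gcaaaaatctGGAACTTCCCgggttactac, with the match in capitals. The gamma-activated site was found at -245 and -52 in Gbp5 and at -106 and -87 in Gbp7, against 8.30% of all promoters. A further RefSeq entry for Gbp3, whose 250 upstream bases are chr3:142560106-142560355, held no match to any of the 3 motifs. A match is a run of letters in this window and not a measured binding site.

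The regions themselves are given in mm9, the build that the submitters' processing notes name, with starts counted from 1. The 14 regions of Gbp5, Gbp7, Gbp3 and Gbp2 lay in 151 kb of chromosome 3, from 142132986 to 142283825, and the only other regions in that span were 2 assigned to Gbp2b. The 5 regions of Gbp6 lay in 45.6 kb of chromosome 5, from 105696270 to 105741915. By the authors' annotation 10 regions were intergenic, 4 were in promoters, 2 in introns, and 1 each in a 5' UTR, a 3' UTR and at a transcription termination site. Promoters made up 21.1% of the 19 regions and 10.96% of all regions. Their lengths ran from 314 to 667 bp with a median of 360 bp. Distances to the TSS are the authors', and a negative distance lies upstream. Regions were assigned to a TSS by distance, so some carry the annotation class of another gene, and the table does not state which gene. These are Gbp3 -14375 bp (intron), Gbp3 -9681 bp (termination site) and Gbp2 -1825 bp (3' UTR). Both of these Gbp3 regions lie between the start-site regions of Gbp7 and Gbp3. GBP genes are similar copies of each other, and how reads that match several copies were handled is not given in the sources used here, so the split of reads between copies is uncertain.

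Signal is given as RPKM, the density of reads corrected for region length and sequencing depth. Library totals recovered from the RPKM values ran from 13188833 reads for the input to 35064429 for RelB in WT cells at 0 h, and 1 read in a GBP region was worth 0.0428 to 0.242 RPKM. The regions held 37.2% to 42.4% of the reads of the RelA libraries and the WT RelB libraries. They held 7.41% of the RelBko RelB reads at 0 h and 4.62% at 1 h, against 3.52% of the input. These RelBko RelB libraries, from cells without the target, are the antibody background of the RelB ChIP. No RelA library from cells without RelA and no RelA library at 0 h were analysed here. No expression was measured, so the cell type can be checked only at bound loci: regions were found for 13 of 17 lineage marker genes and RelA was enriched at all 13, including 4 of 5 dendritic cell genes, 3 of 3 macrophage genes, 2 of 3 neutrophil genes, 2 of 3 B cell genes and 2 of 3 T cell genes. The RelA library counted here was that of WT cells, which was enriched at 82% of all regions, and a gene can hold several regions. RelB in WT cells at 0 h, enriched at 75.9% of all regions, was enriched at 11 of the 13 genes. These were 4 dendritic cell, 3 macrophage, 2 neutrophil, 1 B cell and 1 T cell genes. Loci bound by RelA therefore did not separate cell types here, and the RelB counts are too small to do so.

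RelA and RelB both occupied the start sites of Gbp5, Gbp7 and Gbp3 at high levels. The region at -145 bp of Gbp5, whose protein is linked to the NLRP3 inflammasome, lies at 142159581 to 142159926 on chromosome 3. It read 35.5 RPKM for RelB in WT cells at 0 h, 46.4 for RelB in WT at 1 h and 41.6 for RelA in WT at 1 h, and 4.13 for RelB in RelBko at 0 h, 4.15 for RelB in RelBko at 1 h, 49.95 for RelA in RelBko at 1 h and 2.63 in the input. The 4 libraries of RelA and of RelB in WT cells were high, and both RelBko RelB libraries were nearer the input. The Gbp5 input value, 12 reads, stood at the 96.5th percentile of 10262 promoter regions.

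At the Gbp7 region at -54 bp (chromosome 3, 142193061 to 142193431), RelB in WT cells read 38.7 RPKM at 0 h and 41.2 at 1 h, RelA in WT 34.0 and RelA in RelBko 34.1. The RelBko RelB libraries there read 9.40 RPKM at 0 h and 4.01 at 1 h, and the input read 0.818. The RelBko 0 h value was the highest RelBko RelB value of the 19 regions and stood at the 97.3rd percentile of promoters in that library. Gbp7, whose product is linked to assembly of the NADPH oxidase, also had a strong intergenic region at -1731 bp (142191381 to 142191757). RelB in WT cells read 14.7 RPKM there at 0 h and 26.6 at 1 h, RelA 36.2 in WT and 47.4 in RelBko, RelB in RelBko 3.34 at 0 h and 2.72 at 1 h, and the input 1.61.

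The Gbp3 region at 182 bp, in its 5' UTR (chromosome 3, 142223326 to 142223678), read 38.1 RPKM for RelB in WT at 0 h, 39.4 for RelB at 1 h and 37.0 for RelA in WT. RelA in RelBko read 45.2 RPKM there, RelB in RelBko 5.67 at 0 h and 2.91 at 1 h, and the input 0.859. The Gbp2 promoter region at -2 bp (142283425 to 142283825) was lower in RelB, with 18.1 RPKM at 0 h and 19.5 at 1 h in WT cells, against 25.8 for RelA in WT and 25.9 for RelA in RelBko. RelB in RelBko read 3.71 RPKM at 0 h and 2.81 at 1 h at Gbp2, and the input 1.51. Gbp2 encodes a lipid-anchored GBP that is recruited to vacuoles around intracellular parasites.

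The Gbp6 promoter region at -387 bp (chromosome 5, 105722893 to 105723317) stood apart from the other 4 start sites in its balance of subunits. RelB in WT cells read 5.77 RPKM there at 0 h and 8.61 at 1 h, RelA 26.9 in WT and 18.6 in RelBko, RelB in RelBko 1.08 at 0 h and 1.21 at 1 h, and the input 1.43. RelA was high in both genotypes while RelB was low: RelA in WT stood at the 84.7th percentile of promoter regions and RelB in WT at 1 h at the 39.3rd.

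**Figure D1:**
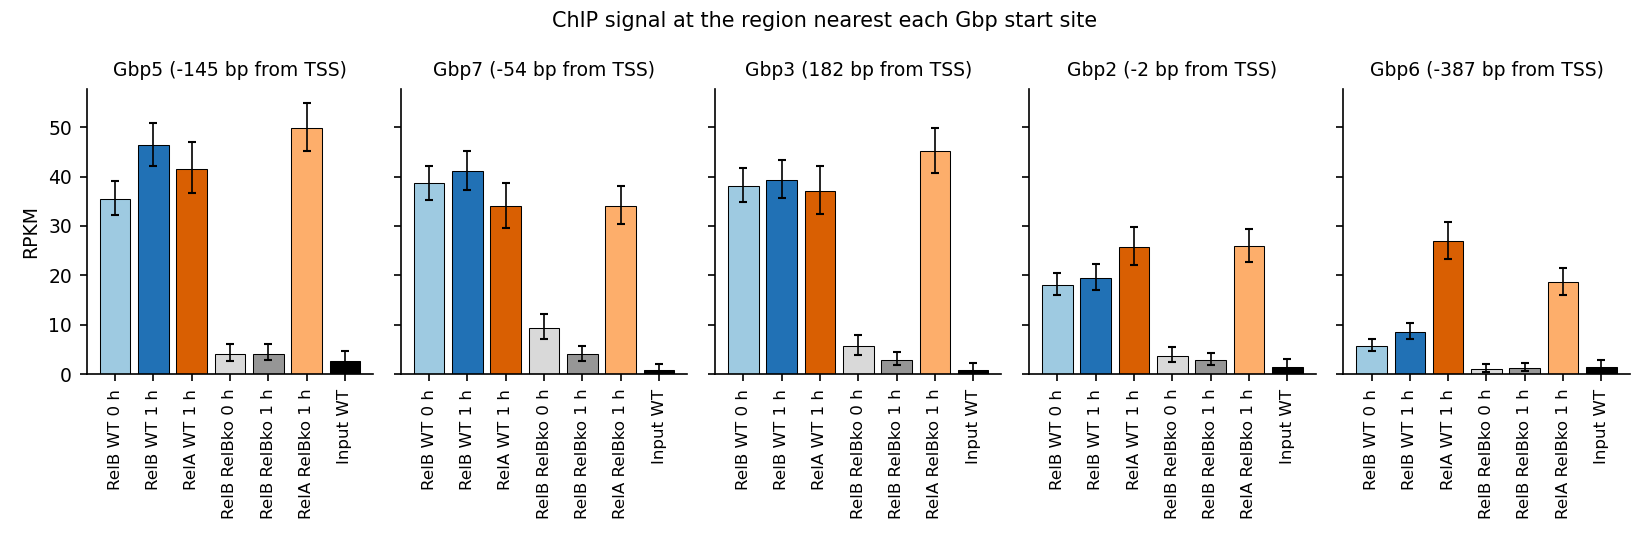
RPKM (linear axis from 0) in each of the 7 libraries at the region nearest the start site of each gene; bars are single libraries and error bars exact 95% Poisson intervals of the reads. RelA and WT RelB bars stand between 18.1 and 49.95 RPKM at 4 genes, while at Gbp6 the WT RelB bars are 5.77 and 8.61 and the RelA bars 26.9 and 18.6.

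The order of the 5 start sites differed between the subunits. RelA in WT ran from 41.6 RPKM (36.6 to 47.0) at Gbp5 through 37.0 (32.4 to 42.1) at Gbp3, 34.0 (29.7 to 38.8) at Gbp7 and 26.9 (23.3 to 30.9) at Gbp6 to 25.8 (22.2 to 29.8) at Gbp2, and the counting intervals of all neighbours in that order overlapped. RelB in WT at 1 h ran from 46.4 (42.2 to 50.8) at Gbp5 through 41.2 (37.4 to 45.2) at Gbp7 and 39.4 (35.6 to 43.5) at Gbp3 to 19.5 (17.0 to 22.2) at Gbp2 and 8.61 (7.03 to 10.4) at Gbp6. There the first 3 overlapped with their neighbours, and Gbp2 and Gbp6 were each separate from their neighbours. At 0 h the first 3 stood between 35.5 and 38.7 RPKM, with Gbp2 and Gbp6 below in the same order. RelA in RelBko had the intervals of Gbp5 and Gbp3 overlapping, with Gbp7, Gbp2 and Gbp6 each apart in descending order.

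The 14 regions farther than 1 kb from a start site were weaker. Their median was 6.03 RPKM for RelA in WT, against 34.0 at the 5 start sites, and 6.34 against 39.4 for RelB in WT at 1 h. The ranges overlapped, since the Gbp7 region at -1731 bp (36.2 RPKM for RelA in WT) was above 3 of the 5 start sites. Input medians were 0.853 for the 14 regions and 1.43 for the 5.

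Among these 14, Gbp6 had its strongest RelB region at -12542 bp. RelB in WT cells there read 20.1 RPKM untreated and 20.9 at 1 h, with 15.5 for RelA in WT and 16.6 for RelA in RelBko, and with 4.56 and 2.05 for RelB in RelBko at 0 h and 1 h and 1.51 in the input. RelB at 1 h was thus higher at this intergenic region than at the Gbp6 promoter (8.61), and RelA was lower (15.5 against 26.9). The Gbp3 region at 17114 bp read 15.7, 15.0, 13.1 and 15.5 RPKM for RelB in WT at 0 h, RelB in WT at 1 h, RelA in WT and RelA in RelBko, with 1.2 and 1.461 for RelB in RelBko at 0 h and 1 h and 0.682 in the input. These 4 libraries were alike there, and both RelBko RelB libraries were far below them. The Gbp3 region at -9681 bp read 16.0, 11.5, 7.90 and 9.62 RPKM in the same order, with 2.22 and 0.712 for RelB in RelBko and 0.843 in the input. The other 10 regions, leaving out Gbp7 -1731 bp, read between 1.03 and 13.7 RPKM in those 4 libraries.

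**Figure D2:**
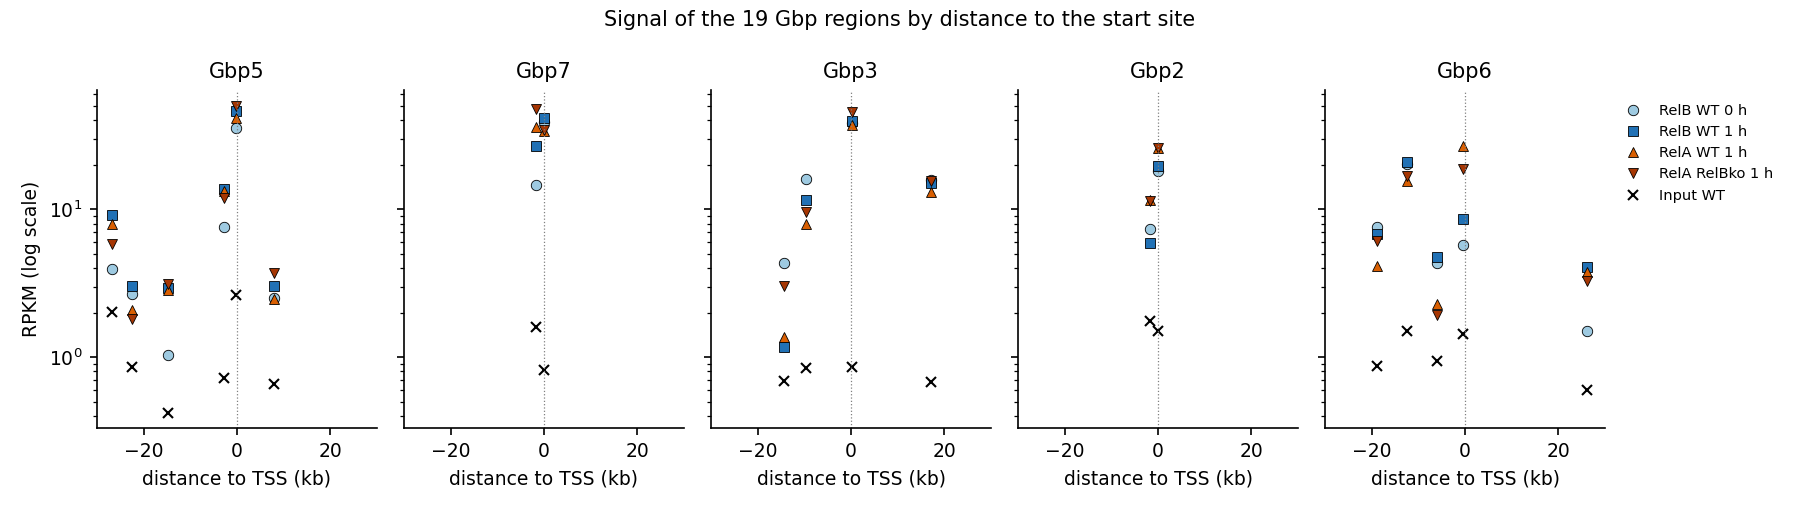
RPKM (log axis) of the 19 regions against distance to the TSS in kb, 1 panel per gene, for the WT RelB, RelA and input libraries. Signal peaks at the start site of Gbp5, Gbp3 and Gbp2, while the Gbp6 panel has RelB highest at -12542 bp and RelA highest at -387 bp.

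Enrichment was called where a library reached 2 RPKM and its value, with 0.5 RPKM added, was at least 2-fold that of the input treated alike. RelB was enriched at 16 of the 19 regions in WT cells at 0 h, where 75.9% of all regions were, and at 18 at 1 h, against 81.7%. RelA was enriched at 16 in WT (82% of all regions) and at 17 in RelBko (75.9%). RelB in RelBko was enriched at 5 regions at 0 h (24.1%) and at 3 at 1 h (6.36%). The 3 regions at 1 h were Gbp5 at -2748 bp, Gbp7 at -54 bp and Gbp3 at 182 bp. Enrichment of GBP regions was close to the background share in the WT libraries.

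RelA at the GBP genes was within 2-fold between the genotypes. Regions enriched in at least 1 library of a comparison were compared by the log2 ratio of RPKM after adding 0.5, and a difference of 2-fold or more was called. Of the 17 regions compared, 0 were called higher in RelBko and 0 lower, against 1.3% and 4.94% of 80885 regions. Their median log2 ratio was 0.12, with a range from -0.52 to 0.91, and the median of all compared regions was -0.06. Scaling on regions enriched in no library, a shift of 0.10, gave 1558 higher and 3191 lower over all regions in place of 1055 and 3994. Beside these low background shares, counts of 0 among 17 are not a result about the GBP regions. ChIP of a bulk culture cannot tell fewer cells with a bound site from weaker binding in each cell.

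Below the 2-fold line, ratios at the start sites and at Gbp7 -1731 bp ran from 0.690 to 1.31. The counting intervals of the start sites other than Gbp6 overlapped one another, and whether their ratios differed was not tested. RelA density was 1.202 times as high in RelBko as in WT at Gbp5 -145 bp (interval 1.025 to 1.411), 1.22 times at Gbp3 182 bp (1.03 to 1.44) and 1.31 times at Gbp7 -1731 bp (1.12 to 1.54). The ratio was 1.00 at Gbp7 -54 bp (0.840 to 1.197) and 1.00 at Gbp2 -2 bp (0.827 to 1.22). At the Gbp6 promoter it was 0.690 (0.563 to 0.846), the only one of the 17 whose interval lay below 1, and its log2 ratio of -0.52 stood at the 5.18th percentile of promoters. In all, 3 intervals lay above 1, 1 below and 13 included 1. The share of such intervals over all regions was not computed, so these counts are no result about the GBP regions. Among promoters, the log2 ratios of the 3 above 1 stood at the 72.9th (Gbp5 -145 bp), 75.5th (Gbp3 182 bp) and 84.9th (Gbp7 -1731 bp) percentiles. The median log2 ratio of all promoters was 0.08. An interval that leaves out 1 says nothing of the spread between cultures, which was not measured.

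The farthest ratio upwards was at Gbp3 -14375 bp (142208469 to 142208798), on few reads. RelA gave 8 reads (1.38 RPKM) in the WT library and 24 (3.04 RPKM) in the RelBko library, a ratio of 2.20 with an interval from 0.957 to 5.67 and a log2 ratio of 0.91 after adding 0.5 RPKM. RelA was enriched there in RelBko alone, so the region entered the comparison through the library in which it was higher. It passed 2-fold with a pseudocount of 0.1 RPKM (log2 1.09) and with scaling on unenriched regions (log2 1.01).

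**Figure D3:**
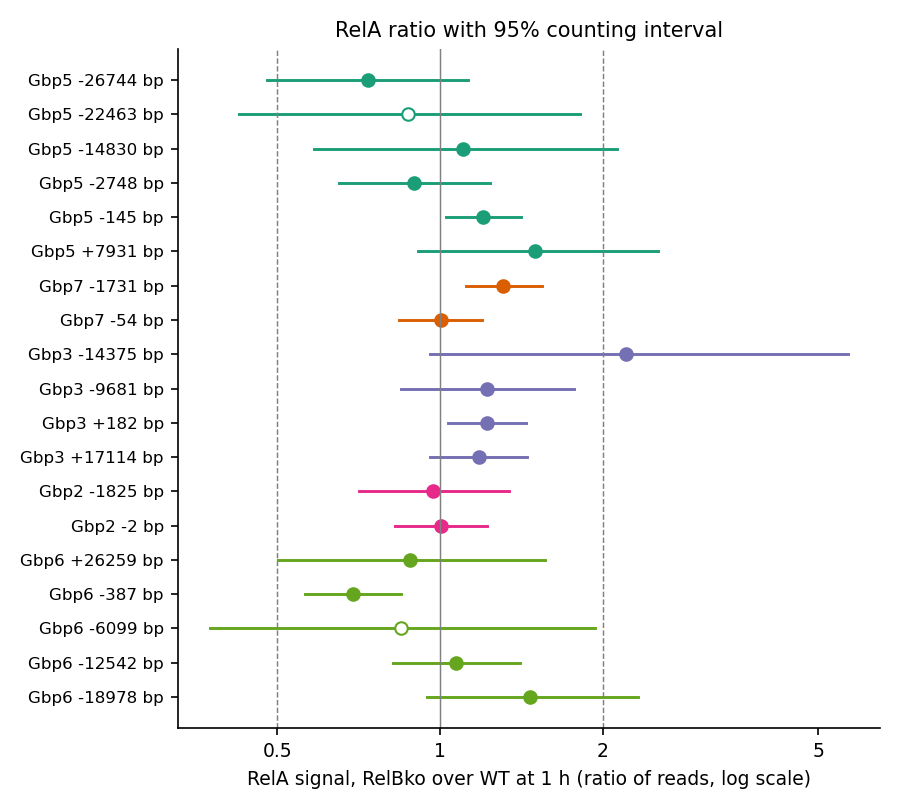
Ratio of RelA read density, RelBko over WT at 1 h (log axis), for the 19 regions with exact 95% Clopper-Pearson intervals; open circles are the 2 regions not compared and dashed lines mark 2-fold. Gbp6 at -387 bp (0.690) is the compared region whose interval lies below 1, and the widest interval is that of Gbp3 at -14375 bp (0.957 to 5.67).

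RelB signal at the GBP genes was higher in WT than in RelBko cells on the deposited scale. Setting the median ratio of all regions to 1 makes about as many regions negative as positive by construction. Of the 18 GBP log2 ratios at 1 h, 8 were then negative, which is no result about the GBP regions. At 1 h, 18 of 18 compared regions were called higher in WT and 0 lower, where 95.9% and 0.128% of 76583 regions were. All 18 were enriched in WT and 3 of them also in RelBko, so most entered through the WT library. The median log2 ratio was 2.54 (5.83-fold), with a range from 1.30 to 3.55, and 2.47 over all compared regions. At the start sites, WT exceeded RelBko by 13.6 times at Gbp3 (8.65 to 22.4), 11.2 times at Gbp5 (7.63 to 17.0), 10.3 times at Gbp7 (7.05 to 15.5), 7.13 times at Gbp6 (3.73 to 15.3) and 6.92 times at Gbp2 (4.46 to 11.3). The smallest log2 ratio, 1.30, was at Gbp5 -22463 bp, with 3.04 against 0.935 RPKM. The RelBko value there was 8 reads, and the ratio was 3.258 (1.497 to 8.085). That interval overlapped the one at the Gbp5 start site and lay below the one at the Gbp3 start site. Whether the ratio differed across the locus was not tested. The GBP count is near the share over all regions and is no result about the GBP regions in particular.

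At 0 h, 14 of 16 compared regions were called higher in WT and 0 lower, against 86% and 0.504% of 71649 regions. All 16 were enriched in WT and 5 of them also in RelBko, so most entered through the WT library. This count too is near the share over all regions and is no result about the GBP regions in particular. The median log2 ratio was 1.99, against 1.85 for all. The ratio was 8.60 at the Gbp5 start site (5.75 to 13.4), 6.72 at Gbp3 (4.77 to 9.77), 5.36 at Gbp6 (2.60 to 12.8), 4.89 at Gbp2 (3.26 to 7.63) and 4.11 at Gbp7 (3.15 to 5.46). The largest, 13.1 (7.69 to 24.1), was at Gbp3 17114 bp. The 2 regions within 2-fold after adding 0.5 RPKM were Gbp5 -22463 bp and Gbp5 7931 bp. The first read 2.66 against 1.30 RPKM, a ratio without that addition of 2.04 (1.01 to 4.58). The second read 2.51 against 1.38 RPKM, a ratio of 1.82 (0.990 to 3.55). A rescaling that sets the median ratio of a comparison to 1, and so takes away a difference common to most regions, moved the median of all regions by -2.47 at 1 h and -1.85 at 0 h. The calls over all regions then went from 73417 higher and 98 lower to 13547 and 10470 at 1 h, and from 61621 and 361 to 10933 and 7048 at 0 h. GBP regions were then 1 higher and 1 lower at 1 h, and 2 higher and 2 lower at 0 h. Scaling on regions enriched in no library moved the medians by -0.70 and -0.73 and left 16 GBP regions higher at 1 h and 11 at 0 h, with 61706 higher and 123 lower of all regions at 1 h and 40087 and 566 at 0 h.

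**Figure D4:**
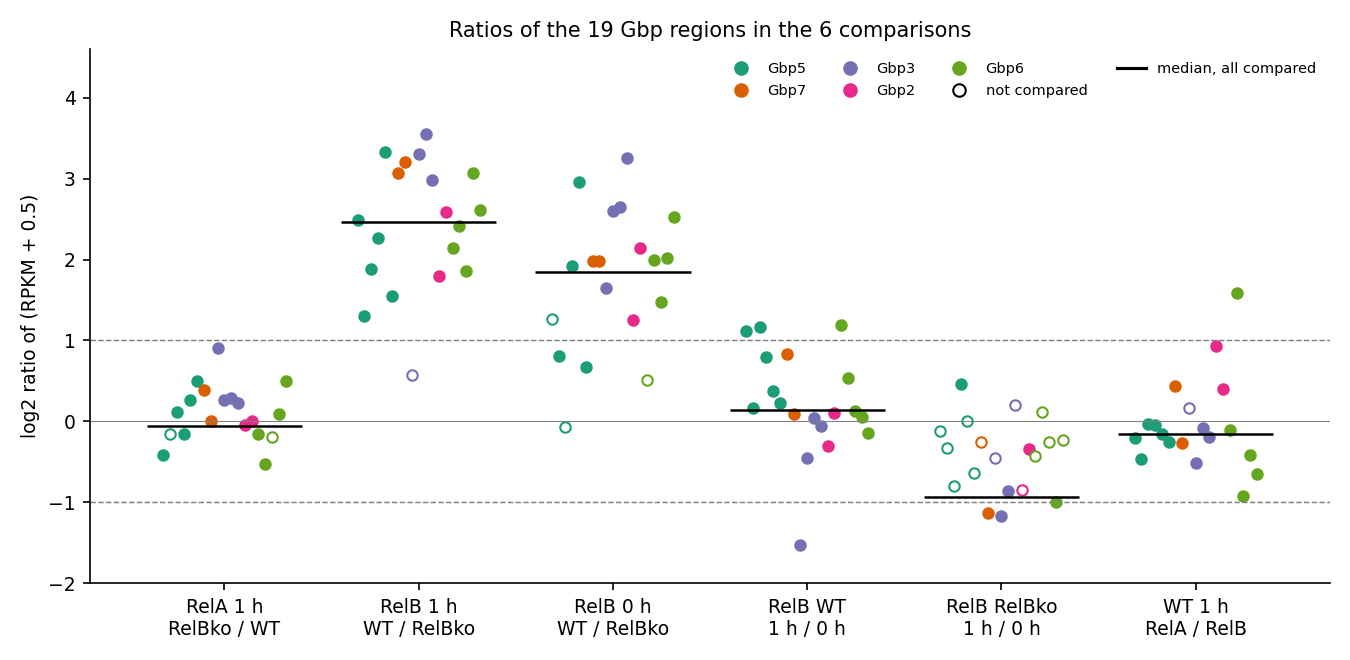
Log2 ratios of RPKM + 0.5 of the 19 regions in the 6 comparisons; points are regions coloured by gene, open circles regions not compared, dashed lines 2-fold and black lines the median of all compared regions. On the deposited scale RelB ratios of WT over RelBko lie above 0 in every compared region (1.30 to 3.55 at 1 h), while RelA ratios of RelBko over WT lie between -0.52 and 0.91.

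In WT cells, RelB at most GBP regions was within 2-fold between the untreated library and that after 1 h with LPS. Of 19 regions compared, 3 were called higher at 1 h and 1 lower, against 11% and 1.68% of 80966 regions, and the median log2 ratio was 0.13 (0.14 over all). The 3 higher regions were all far from the start sites. RelB read 3.97 RPKM at 0 h and 9.16 at 1 h at Gbp5 -26744 bp, a ratio of 2.31 (1.60 to 3.37). At Gbp5 -14830 bp it read 1.03 and 2.94 RPKM, a ratio of 2.85 (1.44 to 5.95), and at Gbp6 26259 bp 1.501 and 4.073 RPKM, a ratio of 2.71 (1.57 to 4.86). Gbp5 -14830 bp and Gbp6 26259 bp were weak, while Gbp5 -26744 bp stood at the 61.6th percentile of all regions at 1 h. None of the 3 was enriched at 0 h, so they entered through the 1 h library alone. The input at Gbp5 -26744 bp was 2.02 RPKM.

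Ratios just under 2-fold were found at Gbp7 -1731 bp, 1.81 (1.51 to 2.19), and at Gbp5 -2748 bp, where 7.63 RPKM at 0 h stood against 13.7 at 1 h, 1.79 (1.35 to 2.39). Of the 5 start sites, Gbp6 (1.49, 1.11 to 2.01) and Gbp5 (1.31, 1.14 to 1.49) had intervals above 1. The intervals of Gbp7 (0.934 to 1.21), Gbp3 (0.901 to 1.18) and Gbp2 (0.893 to 1.29) included 1. Promoters as a whole were shifted upwards too, with a median log2 ratio of 0.17. Among promoters, Gbp6 stood at the 84.6th percentile and Gbp5 at the 74.1st. The share of intervals above 1 over all regions was not computed. The region called lower was Gbp3 -14375 bp, in an intron whose gene the table does not state. It had 4.32 RPKM (50 reads) at 0 h and 1.17 RPKM (11 reads) at 1 h. Its ratio was 0.271 (0.127 to 0.528). RelB was enriched there at 0 h and not at 1 h, so this region entered through the 0 h library alone. The neighbouring Gbp3 region at -9681 bp had a ratio of 0.721 (0.569 to 0.909). Setting the median ratio to 1 shifted all log2 ratios by -0.14 and the calls over all regions from 8901 higher and 1358 lower to 6823 and 2511. Of the GBP regions 2 were then higher and 1, Gbp3 -14375 bp, lower.

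In RelBko cells, 6 regions were enriched in at least 1 RelB library and could be compared, and 2 were called lower at 1 h than at 0 h and 0 higher. Of all 23402 regions compared, 44.1% were lower and 0.863% higher, and the medians were -0.92 and -0.93, so the GBP count is near the background. The 2 were Gbp7 -54 bp, from 9.40 to 4.01 RPKM (ratio 0.426, 0.264 to 0.674), and Gbp3 -9681 bp, from 2.22 to 0.712 RPKM (ratio 0.320, 0.0903 to 0.941). Gbp7 -54 bp was enriched at both times, whereas Gbp3 -9681 bp was enriched at 0 h alone and entered through the library in which it was higher. Gbp5 -2748 bp was the only one of the 6 with a ratio above 1 (1.49, 0.613 to 3.87), and it entered through the 1 h library alone. With the median ratio set to 1, a shift of 0.93, 0 GBP regions were lower and 1 was higher, and the calls over all regions went from 202 higher and 10315 lower to 1249 and 667. The library at 1 h also had the smaller share of its reads in the regions, as given above, and its part in the result was not tested.

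Between the subunits in WT cells at 1 h, 1 of 18 compared regions was called higher for RelA than for RelB and 0 lower, against 7.45% and 7.21% of 85014 regions. That region was the Gbp6 promoter, with 26.9 RPKM of RelA and 8.61 of RelB, a ratio of 3.12 (2.453 to 3.997) and a log2 ratio of 1.59 at the 98.2nd percentile of promoters. The WT RelA and WT RelB libraries at 1 h also enter the comparisons above, so this ratio shares its values with those. RelA in RelBko at Gbp6, 18.6 RPKM from another library, was also above RelB in WT. The same held at the Gbp5, Gbp3 and Gbp2 start sites, so it was not particular to Gbp6. At the Gbp7 start site RelA in RelBko was lower (34.1 against 41.2 RPKM). Next came Gbp2 -1825 bp, with 11.6 RPKM of RelA and 5.86 of RelB, a ratio of 1.98 (1.38 to 2.85). At the other end, Gbp6 -6099 bp had 2.28 RPKM of RelA and 4.78 of RelB, a ratio of 0.477 (0.236 to 0.902), and Gbp6 -18978 bp had 4.15 and 6.83, a ratio of 0.608 (0.392 to 0.923). RelA was not enriched at Gbp6 -6099 bp (13 reads), so that region entered through the RelB library alone, in which it was higher. After adding 0.5 RPKM it was within 2-fold. The largest and smallest of the 18 log2 ratios, 1.59 and -0.92, were at Gbp6 regions, the smallest at this one. The ratio was 0.897 at the Gbp5 start site (0.766 to 1.05), 0.827 at Gbp7 (0.7 to 0.974), 0.941 at Gbp3 (0.796 to 1.11) and 1.32 at Gbp2 (1.08 to 1.62). The median log2 ratio was -0.17 for the GBP regions and -0.16 for all, and setting the median ratio to 1 shifted the latter by 0.16, giving 8298 higher and 3767 lower over all regions in place of 6336 and 6129. These ratios compare antibodies as well as proteins, so their zero point has no meaning as relative occupancy.

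**Figure D5:**
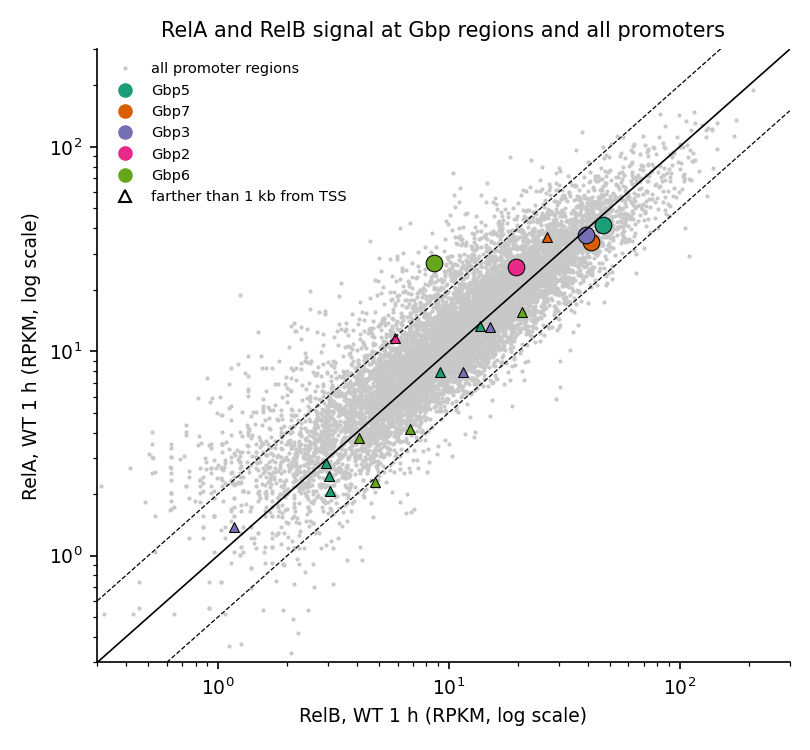
RelA against RelB signal in WT cells at 1 h (RPKM, both axes log) for all promoter regions (grey) and the 19 GBP regions (large circles at start sites, triangles farther than 1 kb); the solid line is equality and the dashed lines 2-fold. The Gbp6 promoter lies above the upper dashed line at 8.61 and 26.9 RPKM, while the Gbp5, Gbp7 and Gbp3 start sites lie together near equality.

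The wider pathway was read from 46 measured genes, out of 48 listed symbols of which 2 are other names of listed genes. For each gene the region with the highest average RPKM of both libraries was used, on the deposited scale alone. They were 6 other GBP genes, 12 immunity-related and other interferon-induced GTPases, 12 genes of interferon signalling and its transcription factors, 8 inflammasome genes, 5 autophagy conjugation genes and 3 feedback inhibitors. For RelA in RelBko against WT, 0 of 46 were higher and 0 lower, where 0.575% and 2.21% of 17395 genes were. The median log2 ratio was -0.04, and -0.15 in the 6 other GBP genes, with 0.00 in all genes.

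For RelB at 1 h, all 46 were called higher in WT than in RelBko and 0 lower, against 97.9% and 0.107% of 16867 genes, with a median log2 ratio of 3.62 (2.89 over all genes). The largest ratios were those of Nlrp3, the inflammasome sensor (111 against 3.85 RPKM), Ifnar2, a type I interferon receptor chain (87.6 against 2.98), Irf8, a factor of dendritic cell development (119 against 4.70), Tyk2, a kinase of interferon receptors (69.1 against 2.62), Gm12185, a GTPase gene (33.1 against 1.04), and Socs1, an inhibitor of JAK kinases (64.1 against 2.50). At 0 h, 45 of 46 were higher and 0 lower, against 86% and 0.279% of 16510 genes, with a median of 2.85 (2.05 over all genes). The largest there were Socs1 (109 against 3.47 RPKM), Gbp8 (63.5 against 2.47), Il1b, the inflammasome's cytokine (79.4 against 3.34), Nlrp3 (80.5 against 3.81), Usp18, an inhibitor of interferon receptor signalling (55.9 against 2.65), and Aim2, a DNA sensor (57.4 against 3.16). The gene within 2-fold at 0 h, named after its values were seen, was Stat2, a subunit of the interferon-activated factor (10.1 against 6.06 RPKM). All 6 other GBP genes were higher in WT at both times, with medians of 3.72 at 1 h and 3.09 at 0 h.

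For RelB in WT at 1 h against 0 h, 0 of the 46 were higher and 1 lower, against 5.9% and 1.35% of 17209 genes. The lower one was Socs1 at 32951 bp, with 109 RPKM at 0 h and 53.3 at 1 h (ratio 0.489, 0.443 to 0.539). In RelBko cells, 13 of 33 compared genes were lower at 1 h and 0 higher, against 47.8% and 0.58% of 9647 genes. Among the largest differences were those at Gbp8 -391 bp (4.56 RPKM at 0 h and 0.564 at 1 h), Atg16l1, which helps to load GBPs onto vacuoles (7.72 and 1.49), Ifnar2 (12.7 and 2.98), Gsdmd, the pore-forming gasdermin (6.34 and 1.60), and Socs1 (10.9 and 3.43). Between RelA and RelB in WT at 1 h, 1 gene was higher and 1 lower, against 6.89% and 5.53% of 17585 genes. Irgm2, a regulatory GTPase, had 17.7 RPKM of RelA and 5.20 of RelB at -3865 bp (ratio 3.39, 2.40 to 4.85), and Gm12185 had 15.0 and 33.1 at 10912 bp (ratio 0.454, 0.362 to 0.566). The list's counts were at or near the background share in most comparisons.

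The genes most like each GBP over the 7 libraries were found by the Euclidean distance of log2(RPKM + 0.5), each gene at its region of highest mean RPKM, among 18209 other genes. For the Gbp5 promoter they were Il10 (0.36), Wnt1 (0.37) and Sesn2 (0.52), and for Gbp3 at 182 bp Wdfy2 (0.35), Tap2 (0.40) and Ankrd44 (0.41). For Gbp7 at -54 bp they were 4930554I06Rik (0.39), 1600002D24Rik (0.51) and Zfp831 (0.54), and for Gbp2 at -2 bp Zfp91 (0.24), A130010J15Rik (0.30) and Phf13 (0.33). For Gbp6, whose strongest region over the 7 libraries is at -12542 bp, they were Rab10os (0.26), Dgat2 (0.26) and Epb41l1 (0.30). No other GBP gene was among these 15. A small distance says only that the values were alike in 7 single libraries.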

How the data were processed

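The deposited table gives, per the file headers, RPKM values that the authors computed over 93611 regions in 7 libraries, with distance to a TSS, gene name and annotation class. HISAT2, HOMER and bedtools were used with the build mm9, per the submitters' processing notes, which state no role or version for them. The choice of the regions is not stated in those notes. The treatment text names a CpG oligonucleotide reagent beside LPS, and the extraction text names only the RelA antibody; stimulus and antibody follow the label of each sample.

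RPKM times region length gave whole reads for 100% of values (tolerance 0.01 read) in every library. No value lay under 1 read, so a read may have been added to each count, and an alternative took 1 read off. Ratios use RPKM + 0.5, enrichment needs 2 RPKM and 2-fold over input, and calls need 2-fold. Intervals are exact (Poisson for a level, Clopper-Pearson for a ratio, 95%); reads are not independent molecules. Ratios were computed over the whole table, with no model fitted, and the ratio calculation was tested on simulated data.

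Members and lists were chosen with earlier results of these data known. The text names all 5 GBP genes with every region, up to 6 called genes of the pathway list per comparison by size (a result for a single gene is not reported here), and the 3 most alike genes per GBP gene. Motifs were searched on both strands of RefSeq promoters. Alternatives were other pseudocounts (0.1 and 1), no filter, stricter enrichment (4 RPKM, 4-fold), 2 scalings, 1 read off, and regions within 10 kb. Software was Python 3.11.15, pandas 2.3.3, NumPy 2.4.6, SciPy 1.17.1 and matplotlib 3.10.9.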

Additional observations from a re-analysis of the deposited data

Results flagged for a closer look

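The log2 ratio of RelB signal at 1 h over 0 h at the Gbp7 promoter region at -54 bp was 0.09 (0.08885) in WT and -1.14 (-1.135) in RelBko cells, values of opposite sign. Each compares 1 library with 1 library, and the difference between them was not tested. In WT the counting interval of the ratio included 1 (0.934 to 1.21), so no direction was measured there, and in RelBko cells it lay between 0.264 and 0.674. With the median ratio of each comparison set to 1, the log2 ratios were -0.05 in WT and -0.21 in RelBko, of the same sign. Of all compared regions in RelBko, 44.1% were lower at 1 h.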

How the results depend on the processing

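Of 102 counts of GBP regions under other settings, 84 were within 1.5 times the reported count, where a count of 0 that stayed 0 was included. Of 284 called log2 ratios 247 were still called and 273 had the same sign. Settings that change only the filter or the distance leave a log2 ratio as it was. A pseudocount cannot change its sign, so much of this agreement was fixed in advance. RelA higher in RelBko went from 0 to 1 (Gbp3 -14375 bp) with a pseudocount of 0.1 RPKM and, again 1, with scaling on regions enriched in no library. Scaling to a median ratio of 1 had the largest effect, which follows from its construction where nearly all regions differ one way. For RelB in WT against RelBko it gave 1 higher and 1 lower at 1 h, and 2 higher and 2 lower at 0 h. Log2 ratios turned negative at 1 h at Gbp5 -22463 bp (-1.16), -14830 bp (-0.58), -2748 bp (-0.20) and 7931 bp (-0.92), at Gbp2 -1825 bp (-0.66), and at Gbp6 26259 bp (-0.33), -387 bp (-0.049) and -6099 bp (-0.60). At 0 h they turned negative at Gbp5 -22463 bp (-1.04) and 7931 bp (-1.17), which were the 2 lower, and at Gbp3 -14375 bp (-0.21), Gbp2 -1825 bp (-0.59) and Gbp6 -6099 bp (-0.38). In RelBko, RelB at 1 h against 0 h became 1 higher and 0 lower with it, and RelA against RelB became 2 higher. Stricter enrichment, which leaves fewer regions, gave 1 higher for RelB in WT at 1 h against 0 h, 1 lower for the same times in RelBko, and 2 and 0 regions enriched for RelB in RelBko at 0 h and 1 h. Within 10 kb, with fewer regions, RelB at 1 h was higher in WT than in RelBko at 11, and the WT time comparison had 0 higher and 0 lower. RelBko lower at 1 h was 1 with a pseudocount of 1 RPKM, and RelA lower than RelB was 1 with 0.1 RPKM; the cause was not tested. No paired analysis was possible because each group held 1 library. Depth limits the weak regions most: in the input the 19 regions held 108 reads in all, and 238 in the RelBko RelB library at 1 h.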
